A study of Mus musculus with 122 samples.

Results

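The 6 Rap guanine nucleotide exchange factor genes of the mouse, Rapgef1 to Rapgef6, were followed across RNA-seq, FLAG and RAD21 ChIP-seq and Hi-C of mouse embryonic stem (ES) cells. They are 6 of the 52459 genes listed in the expression table. The family was chosen by its name and by the expression of 1 member: Rapgef4 was selected because it rose with the transgenes CTCFL, LCL and CLC. Its values in those comparisons are therefore given as a description, with no test.

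Rap proteins are small GTPases that control cell adhesion, cell junctions and integrin activity. They are switched on by exchange factors, which replace their bound GDP with GTP, and switched off by GTPase-activating proteins. Rapgef1 is brought to the membrane by CRK adaptor proteins. Rapgef3 (EPAC1) and Rapgef4 (EPAC2) are opened by direct binding of cAMP, and Rapgef4 is best known from neurons and from hormone-secreting cells. Rapgef2 and Rapgef6 carry a PDZ domain, and Rapgef5 (MR-GEF) is a further Rap exchange factor.

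The cells were E14Tg2a ES cells in which both alleles of endogenous Ctcf carry an auxin-inducible degron and eGFP, and in which Tir1 is expressed from Rosa26, so that auxin (IAA) removes CTCF. Every group shares these alleles. Each line also holds 1 doxycycline-inducible, FLAG-tagged transgene at the Tigre locus, and each line is 1 clone. The transgenes were CTCF, its germline paralogue CTCFL, and chimeras named by the source of the N terminus, the zinc fingers and the C terminus, in which C is CTCF and L is CTCFL (LCL, CLC, CLL and LLC). Cells were untreated (U), given 500 µM IAA (I), 1 µg/ml doxycycline (D), or both (ID). RNA-seq covered the CTCFL, CTCF, LCL and CLC lines in these 4 conditions, with 2 or 3 libraries in each of 16 groups and 38 in all. FLAG ChIP-seq covered all 6 transgenes in D and ID with 2 replicates each, 12 groups, and CTCF and CTCFL in ID were also mapped after RNase or mock treatment. The labels give 24 h of treatment for the treated RNA-seq libraries, for RAD21 and for the treated Hi-C samples used here. FLAG samples in D and ID are also labelled 24 h where the transgene was LCL, CLC, CTCFL or CTCF. Those of CLL, of LLC and after RNase or mock treatment are labelled 48 h. Where CLL or LLC is set beside the other transgenes, time and transgene therefore cannot be told apart.

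Depth, recovered from the normalized read counts in 36 of the 38 libraries, ran from 6847074 reads in replicate 3 of CTCFL D to 49716765 in replicate 1 of LCL ID. Ctcfl RNA rose from 207.8 ± 16.5 normalized read counts (SD, n = 3) in U to 8244 ± 1005 (SD, n = 3) in CTCFL D, and the LCL and CLC lines reached 400 and 1810 in D. In the CTCF line, total Ctcf RNA did not rise with doxycycline: the mean was 4701 in U, 3748 in the libraries labelled CTCF D and 4063 in those labelled CTCF ID, so the RNA does not check those labels. Ctcfl in those libraries averaged 106.9, against 156.9 in U. ES cell markers were present throughout: the 6 genes of the list summed to between 53620 and 204400 in a library, and none was at 0. Their sum moved with treatment, from 110200 to 116600 in U to 53620 to 55760 in ID of the CTCFL line, and from 129300 to 132200 to 76900 to 77720 in the CTCF line. In the CTCFL line, the sum of 4 fibroblast markers was 819.8 to 1023 in U and 1984 to 2167 in ID, and that of 4 neural markers was 3908 to 4108 in U and 2296 to 2446 in D. Their part in the members' changes was not tested. The lines differed before any treatment. The summed level of 5 primitive endoderm markers was 388.3 to 564.3 in untreated LCL and CLC cells and 4352 to 5005 in untreated CTCFL and CTCF cells, and line and any batch cannot be told apart. Library labels of LCL and CLC carry a mark that may name a medium with inhibitors, and those of CTCFL and CTCF do not. The paper's methods list a MEK inhibitor in the medium of all clones. Line, batch and medium cannot be told apart in any comparison of LCL or CLC with CTCFL or CTCF, tests of differences included. A part of medium was not tested. Levels are therefore compared within a line. In RNA from whole cultures, fewer cells that express a gene and less RNA per cell cannot be told apart.

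The members lie on 5 chromosomes (coordinates are GRCm38, genes from GENCODE vM21). Rapgef4 spans 276 kb of the plus strand of chromosome 2 (chr2:71981240-72257474), Rapgef1 121 kb of the same strand and chromosome (chr2:29619720-29740978), Rapgef2 224 kb of the minus strand of chromosome 3 (chr3:79062516-79286517) and Rapgef5 243 kb of chromosome 12 (chr12:117516479-117759737). Rapgef6 covers 176 kb of chromosome 11 (chr11:54522847-54699285), and Rapgef3 is the shortest at 23.2 kb of chromosome 15 (chr15:97744770-97767972, minus strand).

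The sequences that matter most for binding are those under the FLAG sites. A short form of the CTCF core motif, CCNNNAGNNGGC, was searched on both strands of 300 bases around each summit, and it was present at 39.4% of all 56247 FLAG sites of the series and in 8.67% of 32619 RefSeq promoters of the same length. Of 32 sites at the 6 genes, 11 held it, 5 of them among the 10 sites of Rapgef4. A match is a description of the letters only. Printed here are the 5 Rapgef4 sites with a match, as 60 bases read along the strand of the match, with the match in capitals (sequences from the RefSeq GRCm38.p6 genome):
Rapgef4 site 1, chr2:72035721-72035780, minus strand: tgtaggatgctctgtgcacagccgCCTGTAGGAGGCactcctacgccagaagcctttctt
Rapgef4 site 3, chr2:72042268-72042327, minus strand: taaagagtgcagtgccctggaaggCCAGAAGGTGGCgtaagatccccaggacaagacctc
Rapgef4 site 7, chr2:72203779-72203838, plus strand: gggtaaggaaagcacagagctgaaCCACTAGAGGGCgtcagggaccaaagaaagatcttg
Rapgef4 site 8, chr2:72220095-72220154, minus strand: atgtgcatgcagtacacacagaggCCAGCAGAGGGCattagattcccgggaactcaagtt
Rapgef4 site 10, chr2:72235103-72235162, plus strand: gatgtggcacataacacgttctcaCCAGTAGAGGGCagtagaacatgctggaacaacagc

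The promoters of Rapgef1 and Rapgef4 are shown because the first held a FLAG site in most groups and the second in none. Both stretches end at the base before the RefSeq start of transcription. The Rapgef1 stretch holds 2 matches in capitals, 81 and 34 bases before the start, and a further match begins 6 bases after it. The Rapgef4 stretch is rich in G and C and its 300-base promoter window (76.7% G and C, against a median of 53% over RefSeq promoters) held no match:
Rapgef1 promoter, chr2:29619615-29619719, plus strand: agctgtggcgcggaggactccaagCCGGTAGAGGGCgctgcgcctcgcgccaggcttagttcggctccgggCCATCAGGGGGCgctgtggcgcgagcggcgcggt
Rapgef4 promoter, chr2:71981115-71981214, plus strand: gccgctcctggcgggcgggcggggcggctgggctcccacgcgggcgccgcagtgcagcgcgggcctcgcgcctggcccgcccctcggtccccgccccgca

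A last pair shows sites that were called with the zinc fingers of 1 protein alone. Site 4 of Rapgef4 was a site of CTCF and LCL, and site 1 of Rapgef5, 805 bases after its second annotated start, was a site of CTCFL, CLC and CLL. Neither holds the motif in its 300 bases, and the 60 bases around each summit are given on the plus strand:
Rapgef4 site 4, chr2:72096536-72096595: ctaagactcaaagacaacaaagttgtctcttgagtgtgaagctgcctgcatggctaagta
Rapgef5 site 1, chr12:117534663-117534722: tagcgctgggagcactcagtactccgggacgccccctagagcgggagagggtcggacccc

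In untreated cells, Rapgef1 was the most abundant member per kilobase of exon and Rapgef4 the least in all 4 lines. Per kb of exon, the normalized read count of Rapgef1 averaged 416.7 in the CTCFL line and 738 in the CLC line, and that of Rapgef6 came next at 188.4 to 260.4 over the 4 lines. Rapgef2 followed with 112.7 to 144.1 per kb of exon. The cAMP-gated pair was low: Rapgef3 averaged 24.7 to 76.5 per kb of exon, and Rapgef4 averaged 5.30 with CTCFL, 3.30 with CTCF, 0.593 with LCL and 0.900 with CLC. Rapgef5 stood above Rapgef3 in the CTCFL and CTCF lines (93.6 and 88.4 per kb of exon) and below it in LCL and CLC (29.9 and 22.6).

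Rapgef4 fell into 2 separate ranges of normalized read count. The 14 libraries of 6 groups held 77.68 to 194.76, and the 24 libraries of the other 10 groups held 1.14 to 31.67. The high groups were D of all 4 lines and ID of LCL and CLC only.

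In the CTCFL line, the normalized read counts of Rapgef4 were 25.58, 26.68 and 20.9 in U, 140.1, 171.37 and 194.76 in D, and 31.67 and 20.1 in ID. All 3 D libraries lay above all others of the line, while the ID and U libraries overlapped. On the log2(value + 1) scale, the difference from U was 2.74 (SE 0.42) in D and 0.06 (SE 0.47) in ID. The IAA libraries of this line held 16.78, 9.98 and 6.34, all below U, and ID stood 1.22 (SE 0.47) above I on that scale.

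In the CTCF line, which the choice of Rapgef4 did not use, the same gene also rose. Its normalized read counts were 13.82 and 16.57 in U and 171.56, 173.16 and 156.41 in the libraries labelled CTCF D, and the groups did not overlap. This was a 10.4-fold rise on the log2(value + 1) scale (log2 fold change 3.38, SE 0.29, limma adjusted p = 5.02e-05), and the adjusted p stayed between 9.2e-19 and 0.00168 over all alternative fits. In the ID libraries of this line it was 21.7, 17.6 and 19.67, close to U (0.35, SE 0.29, limma adjusted p = 0.329) and to the 18.39, 17.04 and 10.06 of I (0.39, SE 0.26, limma adjusted p = 0.255).

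In the LCL line, Rapgef4 was nearly silent without doxycycline. The normalized read counts were 1.14 and 4.32 in U and 1.75 and 4.04 in I, which stand for 1 and 7 reads and for 3 and 5 reads. They were 108.08 and 131.76 in D (145 and 190 reads) and 94.19 and 77.68 in ID (160 and 55 reads). The ratio of summed, depth-scaled reads was 37.6 in D over U and 27.9 in ID over U, from 8 reads in U, which makes both ratios imprecise. Here the doxycycline libraries were high with and without endogenous CTCF.

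The CLC line gave the same picture. Rapgef4 held 5.91 and 2.37 normalized read counts in U (7 and 2 reads) and 11.63 and 5.32 in I. It reached 145.32 and 114.77 in D and 101.56 and 133.07 in ID, and the D and ID ranges overlapped. The ratio of summed, depth-scaled reads was 29 in D over U and 26.1 in ID over U, from 9 reads in U. Rapgef4 passed the filter on low values in LCL and CLC only through these doxycycline groups, so it had to differ there.

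**Figure D1:**
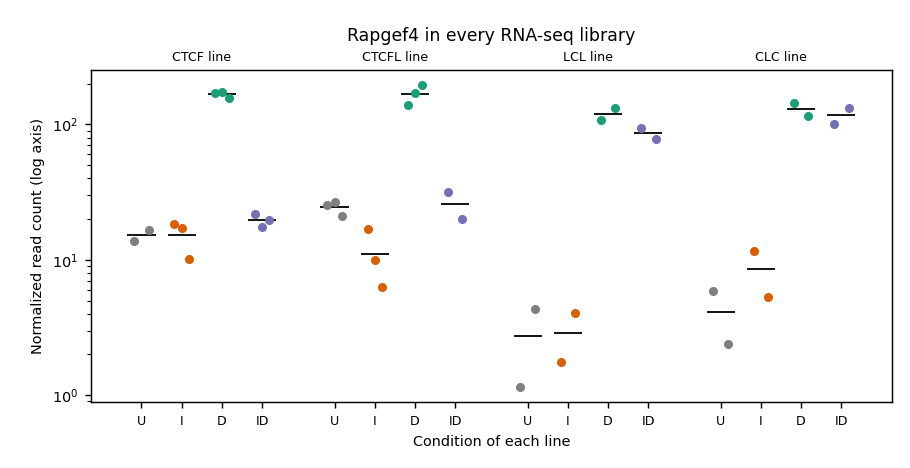
Normalized read count of Rapgef4 in each RNA-seq library, on a log axis, by condition within the CTCF, CTCFL, LCL and CLC lines. Points are libraries and bars are group means; the 14 libraries of D in all lines and of ID in LCL and CLC lie at 77.68 to 194.76, above the other 24.

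The order of the group means crosses lines, which differed before treatment, and is a description only. Ordered by their means, the 16 groups ran from LCL U (2.73) through CTCF U (15.2) and CTCFL ID (25.9) to LCL ID (85.9), CLC ID (117.3), LCL D (119.9), CLC D (130), CTCF D (167) and CTCFL D (168.7). Neighbours in this order overlapped in their ranges, except at 4 steps: CTCF U to CTCF ID, CTCFL ID to LCL ID, LCL ID to CLC ID, and CLC D to CTCF D. Ctcfl RNA is not the same measure in each line. The LCL transgene holds only its termini, the CLC transgene only its zinc fingers and the CTCF transgene neither. CTCFL ID held a mean of 5514 normalized read counts of Ctcfl with 25.9 of Rapgef4. CTCF D held 106.9 of Ctcfl with 167 of Rapgef4. A link between Ctcfl and Rapgef4 was not tested.

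Depletion of CTCF alone asks how the members depend on it before any transgene is induced. In a fit of U and I over all 4 lines with line as a term, 5 of the 6 members fell and none rose, against 45.7% of 16335 genes that passed in either direction and 21.8% that fell. The fall was deepest for Rapgef5 (log2 fold change -2.10, SE 0.12, limma adjusted p = 3.35e-12, or 4.29-fold). Rapgef3 fell by 1.36 (SE 0.32, limma adjusted p = 0.00092) and Rapgef2 by 1.25 (SE 0.12, limma adjusted p = 6.41e-09) on the log2 scale. Rapgef1 and Rapgef6 fell by 0.28 and 0.36. Rapgef4 gave -0.16 (SE 0.33, limma adjusted p = 0.699). Without the CLC line the fall of Rapgef3 was not called (limma adjusted p = 0.0162). These U libraries also serve in the comparisons that chose Rapgef4.

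Within lines, IAA lowered Rapgef5 and Rapgef2 each time. Rapgef5 went from 583.05, 794.5 and 771.03 normalized read counts in U to 185.56, 151.7 and 100.46 in I of the CTCFL line, and from 668.91 and 683.84 to 166.5, 146.54 and 145.85 in the CTCF line. It went from 244.01 and 213.01 to 48.34 and 65.52 in LCL and from 143.51 and 201.68 to 42.04 and 53.16 in CLC. In none of the 4 lines did U and I overlap. Rapgef2 went from 798.45 to 996.3 in U to 210.88 to 270.47 in I of the CTCFL line, the largest fall of this gene under IAA alone (log2 fold change -1.82, SE 0.16, limma adjusted p = 1.13e-08). In the CTCF, LCL and CLC lines it fell by 1.23, 0.75 and 0.90 on that scale.

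Rapgef3, the EPAC1 gene, differed between lines. It fell in the CTCF line (102.09 and 111.58 to 59.05, 40.9 and 57), the LCL line (257.7 and 162.38 to 51.25 and 12.13) and the CLC line (328.38 and 332.17 to 63.51 and 68.22). In the CTCFL line the normalized read counts were 153.51, 102.77 and 120.76 in U and 122.15, 142.72 and 134.85 in I, which overlap. The log2 fold change was -2.97 (SE 0.45; -3.97 without replicate 1 of I and -1.98 without replicate 2) in LCL, -2.31 (SE 0.16) in CLC, -1.03 (SE 0.24) in the CTCF line and 0.10 (SE 0.25) in the CTCFL line. The test of the difference from the CTCFL line passed for LCL (-3.07, SE 0.47, limma adjusted p = 2.96e-05) and CLC (-2.41, SE 0.47, limma adjusted p = 0.000452) and did not for the CTCF line (-1.13, SE 0.45, limma adjusted p = 0.164).

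Counted by line for I against U, 3 of 6 members passed with CTCFL (30.3% of all genes tested), 4 of 6 with CTCF (30.9%), 3 of 6 with LCL (28.4%) and 3 of 6 with CLC (27.2%), and each of them fell. They were Rapgef2, Rapgef5 and Rapgef6 with CTCFL, and Rapgef1, Rapgef2, Rapgef3 and Rapgef5 with CTCF. In both chimera lines they were Rapgef2, Rapgef3 and Rapgef5. Rapgef4 is among the 6, but in LCL and CLC it entered only through its doxycycline groups. It held 8 reads in U and 8 in I of LCL, and 9 and 19 in CLC, too few to read its lack of a call. Rapgef6 in the CTCFL line fell by 0.36 only, and its call ended (limma adjusted p 0.0128 to 0.0185) without replicate 2 or 3 of U or replicate 3 of I. In the CTCF line the call of Rapgef1 ended without replicate 2 of U (0.0238), and that of Rapgef3 without either U replicate or without replicate 2 of I (0.0139 to 0.0314). In LCL the call of Rapgef2 ended without replicate 1 of U or of I (0.014 and 0.0135), and in CLC those of Rapgef2 and Rapgef5 ended without replicate 2 of U (0.0154 and 0.0134). Set against the CTCFL line, the change under IAA differed for 0 of 6 members in the CTCF line (1.63% of genes), 2 of 6 in LCL (8.51%) and 2 of 6 in CLC (10.5%), Rapgef2 and Rapgef3 in both chimera lines. At an unadjusted limma p under 0.05, 2 of the 6 differences of the CTCF line passed, those of Rapgef2 and Rapgef3, and no other tool was run on these differences.

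**Figure D2:**
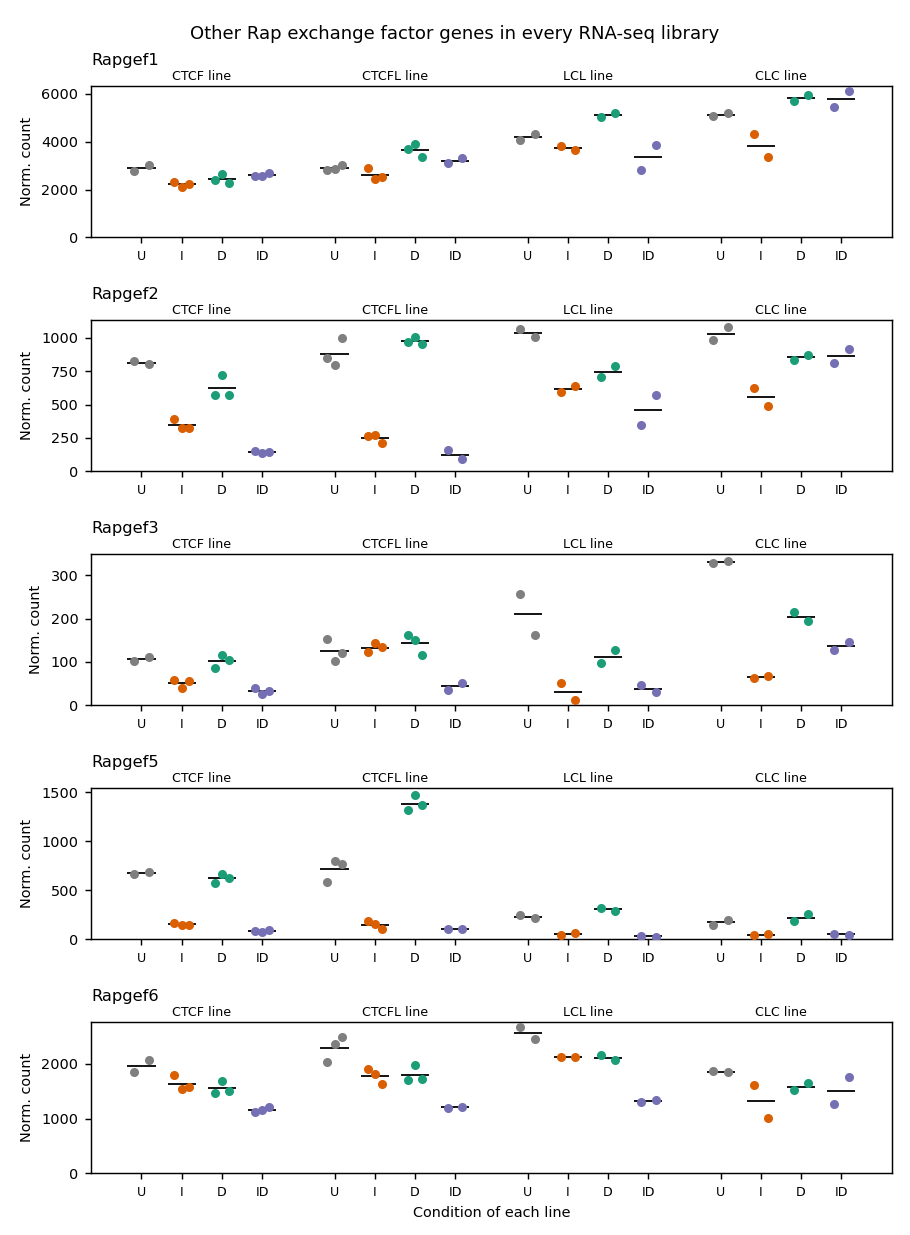
Normalized read count (linear axis from 0) of Rapgef1, Rapgef2, Rapgef3, Rapgef5 and Rapgef6 in each RNA-seq library by condition and line. Points are libraries and bars are group means; Rapgef5 is low in every I and ID library and highest, at 1315.16 to 1468.5, in D of the CTCFL line.

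Doxycycline beside endogenous CTCF switches on the transgene, by the labels, in cells that still hold CTCF. No group had doxycycline without a transgene, so the drug and the transgene cannot be told apart. In the CTCFL line, 3 of 5 tested members passed, against 24.9% of all genes. Rapgef5 rose from 583.05 to 794.5 normalized read counts in U to 1315.16, 1468.5 and 1370.83 in D, with no overlap (log2 fold change 0.96, SE 0.17, limma adjusted p = 0.00018). Rapgef1 rose by a smaller step, from 2802.14, 2880.54 and 3020.24 to 3698.82, 3920.93 and 3382.13 (0.34, SE 0.08, limma adjusted p = 0.00177), and Rapgef6 fell by 0.35 (SE 0.09, limma adjusted p = 0.00387). The call of Rapgef1 ended without replicate 1 of U or replicate 2 of D (limma adjusted p = 0.0105 and 0.014), and that of Rapgef6 without any of 4 libraries, replicates 2 and 3 of U and 1 and 3 of D (0.0201 to 0.0293).

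In the other lines, no tested member but Rapgef4 in the CTCF line passed with doxycycline. In the CTCF line 1 of 6 members passed, which was Rapgef4, against 4.7% of genes. In LCL it was 0 of 5, against 11.3%, and in CLC 0 of 5, against 1.62%. At an unadjusted limma p under 0.05 it was 3 in LCL and 1 in CLC, and edgeR and DESeq2 each called 0 in both. The largest difference was that of Rapgef3, -0.87 (SE 0.45, limma adjusted p = 0.175) in LCL and -0.69 (SE 0.16, limma adjusted p = 0.0309) in CLC. The smallest limma adjusted p among these members was 0.0361 in LCL and 0.0309 in CLC, and with only the 2 groups in the fit Rapgef2 passed in LCL and Rapgef1 and Rapgef3 passed in CLC. Set against the CTCF line, doxycycline acted differently in the CTCFL line on 2 of 5 members (11.9% of genes), Rapgef1 (0.59, SE 0.14, limma adjusted p = 0.00234) and Rapgef5 (1.08, SE 0.28, limma adjusted p = 0.00519). For LCL it was 0 of 5 (3.58% of genes) and for CLC 0 of 5 (2.74%), where only Rapgef1 had an unadjusted p under 0.05 in limma, the 1 tool run (adjusted p = 0.0228 and 0.0818). For Rapgef4, the rise in D less that in the CTCF line was -0.64 (SE 0.56) for CTCFL, 1.78 (SE 0.61) for LCL and 1.37 (SE 0.61) for CLC on the log2(value + 1) scale, given without a test.

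With IAA and doxycycline together, cells lose endogenous CTCF while the transgene is switched on, by the labels. Against U, 4 of 5 members fell with CTCFL (45.3% of all genes passed), 4 of 6 with CTCF (40%), 4 of 5 with LCL (37.9%) and 2 of 5 with CLC (16.7%). None rose, at an adjusted or an unadjusted limma p. Rapgef2, Rapgef3, Rapgef5 and Rapgef6 made up the 4 in each of the first 3 lines, and Rapgef3 and Rapgef5 the 2 in CLC. Rapgef2 ended at 160.52 and 90.46 normalized read counts in ID of the CTCFL line and at 151.91, 139.62 and 148.31 in the CTCF line, below every I library of its line. In CLC it was 813.99 and 916.02, beside 980.93 and 1080.75 in U (limma adjusted p = 0.184). The calls in CLC were thin: that of Rapgef3 ended without either U replicate (0.0143 and 0.0153), and that of Rapgef5 without either U replicate or without replicate 2 of ID (0.0116 to 0.0298).

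Against I, most members that moved fell further in the CTCF, CTCFL and LCL lines. In the CTCFL line 4 of 5 members passed (29.7% of genes), of which Rapgef2 (-1.03, SE 0.18), Rapgef3 (-1.59, SE 0.27) and Rapgef6 (-0.56, SE 0.10) fell further and Rapgef1 rose by 0.30 (SE 0.09, limma adjusted p = 0.00823). The rise of Rapgef1 was not called in 11 of 14 alternative fits, and the fall of Rapgef2 was not called without replicate 2 of ID (limma adjusted p = 0.0112). In the CTCF line 3 of 6 passed (25.5%), Rapgef2 (-1.23, SE 0.11), Rapgef5 (-0.86, SE 0.11) and Rapgef6 (-0.49, SE 0.08), and all 3 fell. In LCL 2 of 5 passed (33.1%), Rapgef5 (-0.81, SE 0.24, limma adjusted p = 0.00988) and Rapgef6 (-0.69, SE 0.09), and both fell. The call of Rapgef5 in LCL ended without replicate 2 of I or of ID (0.11 and 0.054).

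CLC went the other way. There 1 of 5 members passed (5.49% of genes), Rapgef3, and it rose from 63.51 and 68.22 normalized read counts in I to 128.64 and 144.92 in ID (log2 fold change 1.04, SE 0.16, limma adjusted p = 0.00419). This call ended without either ID replicate (limma adjusted p = 0.018 and 0.0358). Rapgef1 and Rapgef2 gave 0.60 (SE 0.12) and 0.64 (SE 0.14), with limma adjusted p of 0.014 and 0.0155, and both passed without replicate 1 of I (0.000654 and 0.00154). Set against the CTCF line, the change from I to ID was higher in CLC for 4 of 5 members (24% of genes), Rapgef2 by 1.88 (SE 0.25), Rapgef3 by 1.67 (SE 0.47), Rapgef5 by 0.97 (SE 0.29) and Rapgef6 by 0.70 (SE 0.18). It differed for 0 of 5 members in the CTCFL line (8.34% of genes) and for 0 of 5 in LCL (23.5%), where 1 and 3 members had an unadjusted p under 0.05 in limma, the 1 tool run (smallest adjusted p = 0.163 and 0.0169).

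**Figure D3:**
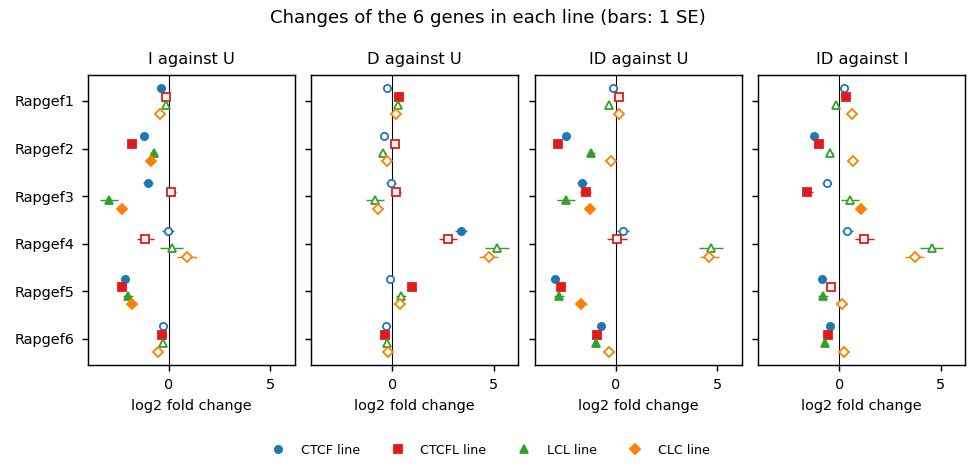
Log2 fold change (points) with 1 SE (bars) of the 6 genes for I, D and ID against U and for ID against I, in the CTCF, CTCFL, LCL and CLC lines. Filled points passed at a limma adjusted p under 0.01 and open points did not or, for Rapgef4 in D and ID of the CTCFL, LCL and CLC lines, were not tested; Rapgef4 stands to the right of 0 in D of all 4 lines and Rapgef2 and Rapgef5 to the left in I.

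FLAG ChIP-seq shows where the tagged proteins were bound. A site was a region with overlapping peaks in both replicates, and a promoter site had its middle within 3 kb of a protein-coding start. At Rapgef1, the site over the start (chr2:29618498-29620711, summit 89 bases upstream) was called in 10 of the 12 groups, all but CLL D and LLC D, which had 1908 and 3305 sites in the whole genome. Its fold enrichment, for replicates 1 and 2, was 14.8 and 8.05 in CTCF D, 7.49 and 9.34 in CTCFL D, 5.64 and 6.51 in LCL D and 11.6 and 7.29 in CLC D. The highest was 17.1 in CTCF ID.

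The promoter sites of the other members were split by zinc finger. CTCF and LCL carry the zinc fingers of CTCF, and CTCFL, CLC, CLL and LLC carry those of CTCFL. Over the start of Rapgef2 a site was called with CTCFL alone (5.75 and 4.46 fold in D, 6.14 and 4.92 fold in ID). It was not called with CLC, CLL or LLC, which carry the same zinc fingers. The site of Rapgef5 was called with CTCFL (7.27 and 9.17 fold in D, 9.55 and 5.65 fold in ID), CLC ID (6.13 and 4.61 fold) and CLL ID (4.14 and 6.64 fold). Rapgef3 had its promoter site in CTCF D (5.3 and 5.14 fold), LCL D (4.61 and 4.08 fold) and LCL ID (5.02 and 5.94 fold). Rapgef4 and Rapgef6 had none in any of the 12 groups. These absences, and the division by zinc finger, rest on the need for peaks in both replicates. For CLL and LLC, labelled 48 h where the other transgenes are labelled 24 h, a part of treatment time was not tested. In some groups, CTCFL D among them, a replicate alone held promoter peaks at more members, as given below.

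Read against all 21646 protein-coding genes, the members with a promoter site were 2 of 6 with CTCF in D (26.4% of genes) and 1 in ID (20.1%). They were 3 with CTCFL in D (31.1%) and 3 in ID (28.7%), 2 with LCL in D (27.9%) and 2 in ID (37.2%), and 1 with CLC in D (6.37%) and 2 in ID (18.1%). CLL had 0 in D (0.661%) and 2 in ID (12.8%), and LLC had 0 in D (1.01%) and 1 in ID (3.37%). With 6 members, these counts are near the background or too few to tell from it.

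**Figure D4:**
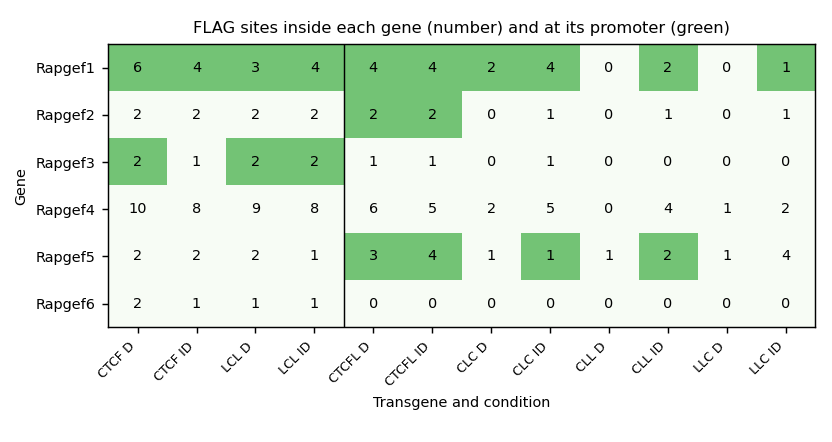
Number of FLAG sites inside each of the 6 genes (figures in the cells) for the 12 transgene and condition groups, with cells coloured green where the gene also had a site within 3 kb of a protein-coding start. The black line parts the groups with CTCF zinc fingers (left) from those with CTCFL zinc fingers (right); Rapgef4 has up to 10 sites inside and no green cell.

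Of the 32 sites, Rapgef4, the longest member, held 10. All 10 lay in introns, between 54.5 and 253.9 kb after the first start. CTCF had 10 of them in D and 8 in ID, LCL 9 and 8, CTCFL 6 and 5, CLC 2 and 5, CLL 0 and 4, and LLC 1 and 2. This was 3.62 sites per 100 kb in CTCF D, where all protein-coding gene bodies held 1.92, and 2.17 in CTCFL D, where they held 1.3. Per 100 kb, Rapgef3 with 8.62 and Rapgef1 with 4.95 held more in CTCF D. From 1 replicate alone, 6 or 11 peaks lay in Rapgef4 in CTCFL D and 0 or 2 in CLL D. The site numbered 10 (chr2:72234601-72236239) was called in 10 groups and reached 14.5 fold in CTCF ID, and site 7 (chr2:72202964-72204253) was called in 8 groups. Sites 2, 4, 5 and 6 were called with CTCF zinc fingers alone, and no site of Rapgef4 with CTCFL zinc fingers alone. The nearest site to any of the 3 annotated starts was site 3, 12.3 kb before the last one.

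**Figure D5:**
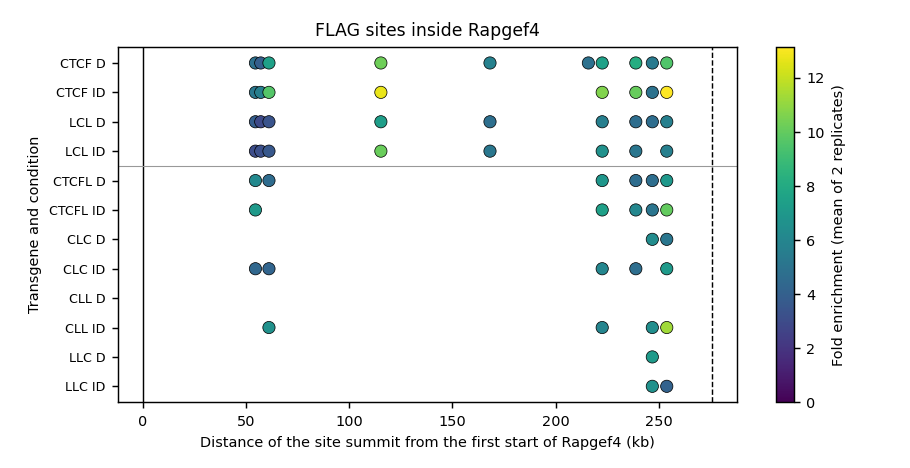
FLAG sites inside Rapgef4 by the distance of their summit from the first start (x axis, kb) and by transgene and condition (y axis). Colour gives fold enrichment averaged over 2 replicates, the solid and dashed lines mark the first start and the end of the gene, and the grey line parts CTCF zinc fingers (above) from CTCFL zinc fingers (below); the nearest site lies 54.5 kb from the start.

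Over the 32 sites of the 6 genes, 11 (34.4%) were called with CTCF zinc fingers alone, 8 (25%) with CTCFL zinc fingers alone and 13 (40.6%) with both. Over all 56247 sites of the series the shares were 39.6%, 18.5% and 41.9%. Of the 8 sites of Rapgef5, 6 belonged to CTCFL zinc fingers alone and 1 to CTCF zinc fingers alone, whereas both sites of Rapgef6 were called with CTCF zinc fingers alone. The number of sites per group ranged from 1908 to 37154, which bears on every share.

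Inside the 6 genes, CTCF in ID had 19 sites after mock treatment and 3 after RNase, and CTCFL had 6 and 2. The paper reports that RNase reduced CTCF binding and left CTCFL binding unaltered. For CTCF peaks, both RNase replicates lay below both mock replicates inside Rapgef1, Rapgef2 and Rapgef4, and not inside Rapgef3, Rapgef5 or Rapgef6. Inside Rapgef4, CTCF had 8 sites after mock treatment and 1 after RNase, but replicate 1 of RNase alone held 7 peaks there and replicate 2 held 1. For CTCFL, 2 sites stood against 1, with 2 and 1 peaks in the RNase replicates. Replicate 2 of RNase was low in the whole genome, with 8584 peaks for CTCF and 2526 for CTCFL, whereas replicate 1 held 24896 and 9204, against 23919 and 8918 in replicate 1 of mock. The promoter site of Rapgef1 was present in all 4 of these groups.

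RAD21, a subunit of cohesin, was mapped in D and ID of 4 lines. Inside Rapgef4, replicate 1 of CTCF D and replicate 1 of CTCFL D held 7 peaks each, all of them at FLAG sites, and each of the other 14 libraries held 0 to 2. Those 2 libraries also had the most peaks, 22765 and 20467, and their second replicates had 3756 and 238 with 0 in Rapgef4. Conditions were not compared, since replicates differed this much.

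Hi-C domains were called by the authors at 40 kb for 12 conditions, each from 1 list with no replicates. By the ratio method, the first start of Rapgef4 lay near the end of a domain of 440 kb (chr2:71560001-72000000) in U, D and ID of the CTCF line, in U and D of the CTCFL line and in D of LCL and CLC. In CTCF I, CTCFL I, CTCFL ID and CLC ID, it lay instead in a domain of 1320 or 1360 kb that held the whole gene, and in LCL ID it lay in none. Rapgef4 was low in CTCFL ID and high in CLC ID, which shared the long domain, and low in CTCF U and high in CTCF D, which shared the short one. A link between these domains and the RNA of Rapgef4 was not tested. By the insulation method the start lay in a domain in LCL ID only, of 480 kb. Rapgef3 and Rapgef5 lay whole inside 1 domain in all 12 conditions by the ratio method, and Rapgef6 in none of them.

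Of 6 protein-coding neighbours of Rapgef4 within 500 kb, 0 rose and 1 fell with doxycycline in the CTCF line (4.7% of all genes passed). With CTCFL 1 rose and 1 fell (24.9%), with LCL 1 and 1 (11.3%), and with CLC 1 and 0 (1.62%). Under IAA over the 4 lines 1 rose and 3 fell, against 23.9% and 21.8% of all genes. The nearest before Rapgef4, Pdk1 (a kinase of pyruvate dehydrogenase, 77.4 kb away), fell in D of the CTCF line by 0.69 (SE 0.09, limma adjusted p = 0.000857). It fell by 0.63 in D of the CTCFL line and by 0.57 in D of LCL. Pdk1 also fell under IAA over the 4 lines, by 0.90 (SE 0.13, limma adjusted p = 2.69e-06). The nearest after Rapgef4, Map3k20 (a stress-activated kinase, 28.2 kb away), gave 0.38 (SE 0.11, limma adjusted p = 0.0379) in D of the CTCF line. It rose by 0.73 in D of LCL and by 1.12 in D of CLC. Antisense transcripts of the members were listed at no more than 6.84 normalized read counts in any library.

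The wider Rap pathway was read from 37 genes in 6 lists: Rap GTPases, Rap GTPase-activating proteins, other Rap exchange factors, Rap effectors, CRK adaptors and the adenylyl cyclases that make cAMP. Under IAA over the 4 lines, 11 of 35 tested genes rose and 14 fell, where 23.9% and 21.8% of all genes did, with a median log2 fold change of 0.05 against 0.03 over all genes. Dock4, another Rap exchange factor, fell by 2.86 (SE 0.13, limma adjusted p = 9.19e-14), and it fell in each line under IAA alone, between 2.73 and 3.06. Adcy7, an adenylyl cyclase, rose by 1.44 (SE 0.16) and Radil, a Rap effector in adhesion, by 1.33 (SE 0.09).

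With doxycycline alone the pathway moved less. In the CTCFL line 6 of 35 tested genes rose and 5 fell, where 12.4% and 12.6% of all genes did, led by the adenylyl cyclases Adcy2 (2.40, SE 0.30) and Adcy5 (1.17, SE 0.22), and 3 of the 8 tested cyclases rose. In the CTCF line 0 rose and 1 fell, where 1.47% and 3.23% of all genes did, and the 1 was the adaptor gene Crk (-0.43, SE 0.07, limma adjusted p = 0.00211). In LCL 4 of 34 rose and 4 fell, where 5.15% and 6.2% of all genes did. In CLC 0 of 33 passed in limma, the 1 tool run, where 0.73% of all genes rose and 0.887% fell. Of these 33 genes, 8 had an unadjusted limma p under 0.05. In ID against U, 6 rose and 13 fell with CTCFL (22.2% and 23.1% of all genes) and 7 and 16 with CTCF (18.9% and 21.2%). With LCL it was 11 and 9 (18.5% and 19.4%), and with CLC 4 and 3 (8.81% and 7.9%). Plce1, which is also a Rap exchange factor, fell by 1.42 (SE 0.15) from I to ID in the CTCF line, and its change there was 3.00 (SE 0.33) higher in CLC.

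The genes whose pattern was most like that of Rapgef4 were named by Pearson correlation over the 16 group means of log2(value + 1), each less the mean of its line, among 10005 genes. They were Galnt16 (r = 0.893), Lipg (0.863), Gm45716 (0.849), Ctcfl (0.83) and Wls (0.826). By Spearman correlation 3 of these 5 stayed among the first 5, without Gm45716 and Ctcfl, and over all libraries 4 did. The points share lines, libraries and treatments, so these values are descriptions and carry no p. Rapgef4 was chosen for its rise with transgenes that hold parts or all of Ctcfl, so the place of Ctcfl follows in part from that choice. From U to D, Galnt16 and Gm45716 passed in no line (smallest limma adjusted p = 0.0177 and 0.0886). Lipg passed in the CTCFL and CLC lines, and Wls in the CTCFL and LCL lines. Among the members, r with Rapgef4 was 0.26 for Rapgef5, 0.16 for Rapgef2 and 0.06 for Rapgef3, while Rapgef1 and Rapgef6 varied too little to be compared.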

How the data were processed

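RNA-seq values were deposited as a signal table: the authors aligned poly(A) reads with STAR and normalized gene counts by 1 size factor per library with DESeq2. The submitters' processing notes name HTSeq, with no role given. Peaks were called by the authors with MACS in each replicate on GRCm38/mm10, and the deposited lists give fold enrichment (a ratio to background) and −log10 q; domains were deposited as positions from HiC-bench.

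The test was limma 3.58.1 in R 4.3.3 on log2(value + 1), with Benjamini-Hochberg adjustment over all genes tested and 1 fit for the 4 conditions of each line. Genes whose mean fell below 10 there did not enter. A gene passed at an adjusted p under 0.01. Interactions were fitted over 16 groups. The members and the pathway lists were chosen with earlier results of these data known. Named genes were the 6 members, at most 3 of the passing pathway genes with the largest change per comparison, the 5 genes most like Rapgef4, its nearest neighbours, and Ctcf and Ctcfl. Replicates are separate samples by their labels, and nothing says that they were separate cultures, so p-values measure the spread between these samples. Treatment times are those of the labels, and the methods give other times for some samples.

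Sites were peaks that overlapped by at least 1 bp in both replicates. Alternatives were a pseudocount of 5, no filter or a minimum mean of 50, TMM rescaling, the 2 groups alone, all lines in 1 fit, a replicate block, edgeR 4.0.16 and DESeq2 1.42.0 on recovered reads (values up to 500 reads were whole within 0.1 in 36 libraries; CTCFL I and CTCFL ID replicate 2 did not enter), leaving out each library, and for sites a −log10 q of 5, 1 kb and 50% overlap. Interactions of I against U and of ID against I, and leaving out libraries from the interactions, were added after seeing the data. Limma was tried on simulated counts laid out as the CTCF line, for D against U, with 1 setting of the spread for all genes. The edgeR, DESeq2, interaction and all-line fits were not tried in this way. Promoters are from RefSeq, and 8 of 8 member promoters equalled the genome used. IgG samples and Hi-C of CLL were not analysed here.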

Additional observations from a re-analysis of the deposited data

Results flagged for a closer look

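In 10 cases the change of a member differed between 2 lines by a test of the difference itself (interaction contrasts, limma over all genes). They were singled out for this alone, and no group held enough libraries to look for a library apart from the rest.

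With doxycycline, the log2 fold change in the CTCFL line less that in the CTCF line was 0.59 for Rapgef1 and 1.08 for Rapgef5. The first call ended without replicate 2 of CTCF U (adjusted p = 0.0273). The second ended without any of 6 of the 11 libraries, CTCFL U replicate 1, CTCFL D replicate 2, both CTCF U replicates and CTCF D replicates 1 and 3 (0.0104 to 0.0296).

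With IAA, Rapgef2 fell less in the chimera lines than in the CTCFL line: the difference of the log2 fold changes was 1.07 for LCL and 0.92 for CLC. For Rapgef3 it was -3.07 and -2.41, a deeper fall. The Rapgef2 difference for LCL was not called without CTCFL I replicate 3, either LCL U replicate or LCL I replicate 2 (adjusted p 0.0103 to 0.0188). For CLC it was not called without CTCFL U replicates 1 and 3, CTCFL I replicates 1 and 3, either CLC U replicate or CLC I replicate 1, each left out in turn (0.0102 to 0.0522). Both Rapgef3 differences were called without each of the 10 libraries, but the value for LCL was -4.07 without LCL I replicate 1 and -2.08 without LCL I replicate 2.

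From I to ID, the CLC line less the CTCF line gave 1.88 for Rapgef2, 1.67 for Rapgef3, 0.97 for Rapgef5 and 0.70 for Rapgef6. The Rapgef2 difference held without each of the 10 libraries. That of Rapgef3 ended without any of 8 of them (all but CTCF I replicate 2 and CTCF ID replicate 1, adjusted p 0.0107 to 0.031). That of Rapgef5 ended without any of 7 (all but CTCF ID replicate 3, CLC I replicate 2 and CLC ID replicate 2, 0.0125 to 0.0694). That of Rapgef6 ended without CTCF I replicate 1, CLC I replicate 2 or CLC ID replicate 2 (0.0105 to 0.115).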

How the results depend on the processing

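No direction of a called value reversed. Of the members' tested log2 fold changes, 910 of 949 kept their side of the threshold under other settings and 948 of 1033 when a library or line was left out. Members called from I to ID in the CTCFL line went from 4 to 2 with edgeR and to 2 with DESeq2, which lacked a replicate each of I and ID. In LCL that count went from 2 to 1 with a pseudocount of 5, without the filter, with TMM, with the 2 groups alone, with edgeR and with DESeq2. In CLC it went from 1 to 0 with the 2 groups alone and to 3 with DESeq2. Under IAA the CLC count went from 3 to 5 with all lines in 1 fit. With doxycycline and the 2 groups alone, LCL went from 0 to 1 and CLC from 0 to 2. FLAG promoter counts went from 2 to 0 in CTCF D with 50% overlap and from 2 to 1 in CLL ID with a −log10 q of 5. The cause of these shifts was not tested.

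Same-numbered libraries did not vary together: 3 of 54 pairs had a correlation over 0.1 (-0.308 to 0.148). The numbers therefore name samples only. In LCL and CLC, with 2 libraries per group, both pairs of a comparison give the same value by construction, so those pairs are not separate evidence. With a replicate block, the CLC count from I to ID was 0 and that of the IAA difference of CLC from CTCFL was 1.

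With 1 library left out, the counts ran from 2 to 4 (CTCFL, I to ID), 2 to 5 (CTCF, IAA), 1 to 3 (LCL, I to ID), 1 to 5 (CLC, IAA), 0 to 2 (CLC, ID against U) and 0 to 3 (CLC, I to ID). For differences between lines they ran from 0 to 2 (doxycycline, CTCFL less CTCF), 1 to 2 (IAA, LCL less CTCFL), 1 to 3 (IAA, CLC less CTCFL), 0 to 1 (I to ID, LCL less CTCF) and 1 to 3 (I to ID, CLC less CTCF). Calls that appeared came without CTCFL I replicate 3 (Rapgef5), CTCF I replicate 1 (Rapgef6), LCL ID replicate 2 (Rapgef1, Rapgef2), LCL I replicate 1 (Rapgef3) or CLC I replicate 1 (Rapgef1, Rapgef2, Rapgef6). For I to ID, LCL less CTCF, Rapgef2 was also called without LCL ID replicate 1. For IAA, CLC less CTCFL, Rapgef4 was called without CTCFL I replicate 1, CLC U replicate 1 or CLC I replicate 2. In the main fit that difference of Rapgef4 was 2.05 (SE 0.59, limma adjusted p = 0.0124). From 1 FLAG replicate, promoter counts were 1 to 2 (CTCF ID), 3 to 5 (CTCFL D), 2 to 4 (LCL ID), 0 to 2 (CLL D) and 0 to 1 (LLC D).

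Over all genes, the call counts moved most in CLC and in CTCF D. CTCF D had 785 calls, 488 without the filter, 427 with the 2 groups alone, 175 with the block and 1605 with DESeq2. CLC D had 248, against 70, 3541, 25 and 1006 in that order and 1663 with all lines in 1 fit. CLC from I to ID had 842, against 491, 3, 283, 1709 and 2479. CLC ID against U had 2563, against 1623 with the block and 4336 with all lines. CLC under IAA had 4172 and 2441 with the 2 groups alone, LCL D 1733 and 1106 without the filter, and CTCFL from I to ID 5006, 2882 with edgeR and 3272 with DESeq2. Depth limits Rapgef4 most, at 1 to 7 reads in untreated LCL and CLC libraries.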
